A study of Equus asinus with 12 samples.

Results

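The 10 genes examined belong to sarcoplasmic reticulum calcium handling and were followed through 12 RNA libraries of donkey skeletal muscle. They are the calcium pumps ATP2A1 and ATP2A2, the pump regulators SLN and PLN, the calcium-binding proteins CASQ1, CASQ2 and SRL, the release channel RYR1, and the junctional proteins TRDN and JPH1. They were chosen by name as a pathway, and where a name occurred on several rows the row with the highest mean level was taken. All 10 were among the 27084 loci of the expression table, and all 10 belonged to the 12408 tested loci, those with 3 or more libraries at an FPKM of 1 or above. FPKM is a fragment count divided by transcript length and by library size, so levels can be compared between genes per unit of length.

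The libraries came from the longissimus dorsi, which runs along the spine, and the gluteal muscle of Dezhou donkeys aged 24 months, of the Sanfen and Wutou strains (entered as breed in the labels). Each of the 4 groups, Sanfen longissimus, Sanfen gluteal, Wutou longissimus and Wutou gluteal, had 3 libraries, and the labels name no treatment or engineered allele. Total RNA was taken from whole frozen muscle, so fibres of every type and all other cells of the tissue contributed. The design names 6 donkeys but no label ties a library to an animal, so p-values here describe only how these libraries scatter, which may be partly technical.

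Muscle contraction begins when depolarisation of the transverse tubule opens the ryanodine receptor of the adjoining sarcoplasmic reticulum and stored calcium floods the fibre. Relaxation follows as pumps of the SERCA family return the calcium to the store, where calsequestrin binds it. Fast fibres use mainly the SERCA1 pump, encoded by ATP2A1, with calsequestrin 1, whereas slow fibres and the heart use mainly SERCA2, encoded by ATP2A2, and slow fibres and heart also carry calsequestrin 2.

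A pair of libraries stood apart in their fibre-type genes. In the second Sanfen longissimus library and the first Sanfen gluteal library, the summed FPKM of 13 fast fibre genes was 0.672 and 0.637 times that of 13 slow fibre genes, whereas the same ratio was 1.96 to 3.6 in the other 10 libraries. These sums weigh most on the most abundant gene of each list, TNNC2 (mean 8399 FPKM) of the fast and MB (4213) of the slow list. The strain differences of the pumps, the calsequestrins and PLN are given with and without them. No source used here gives the number of reads behind a library, so no counting error could be attached to a value. The summed FPKM was 214564 to 319767 per library, and the 10 genes held 1.07% to 1.55% of it.

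The 10 genes fell into an abundant and a scarce set, separated by a 19.4-fold step between SRL and PLN. In order of mean FPKM over 12 libraries, SLN stood at 1122 ± 309 (SD, n = 12), ATP2A1 at 1033 ± 212, CASQ1 at 596 ± 168, ATP2A2 at 234 ± 119, RYR1 at 195 ± 70.8 and SRL at 168 ± 16.5. The scarce set held PLN at 8.67 ± 5.67, JPH1 at 8.45 ± 1.51, TRDN at 5.62 ± 1.38 and CASQ2 at 2.42 ± 1.93. The release channel, both pumps, the fast calsequestrin and sarcolipin were in the abundant set, and the slow calsequestrin was the scarcest member.

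Some neighbours in this order were not separated library by library. SLN exceeded ATP2A1 in 6 of 12 libraries, ATP2A2 exceeded RYR1 in 7, RYR1 exceeded SRL in 8 and PLN exceeded JPH1 in 5. ATP2A1 exceeded CASQ1, SRL exceeded PLN and JPH1 exceeded TRDN in all 12 libraries, and CASQ1 exceeded ATP2A2, and TRDN exceeded CASQ2, in 11 of 12.

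**Figure D1:**
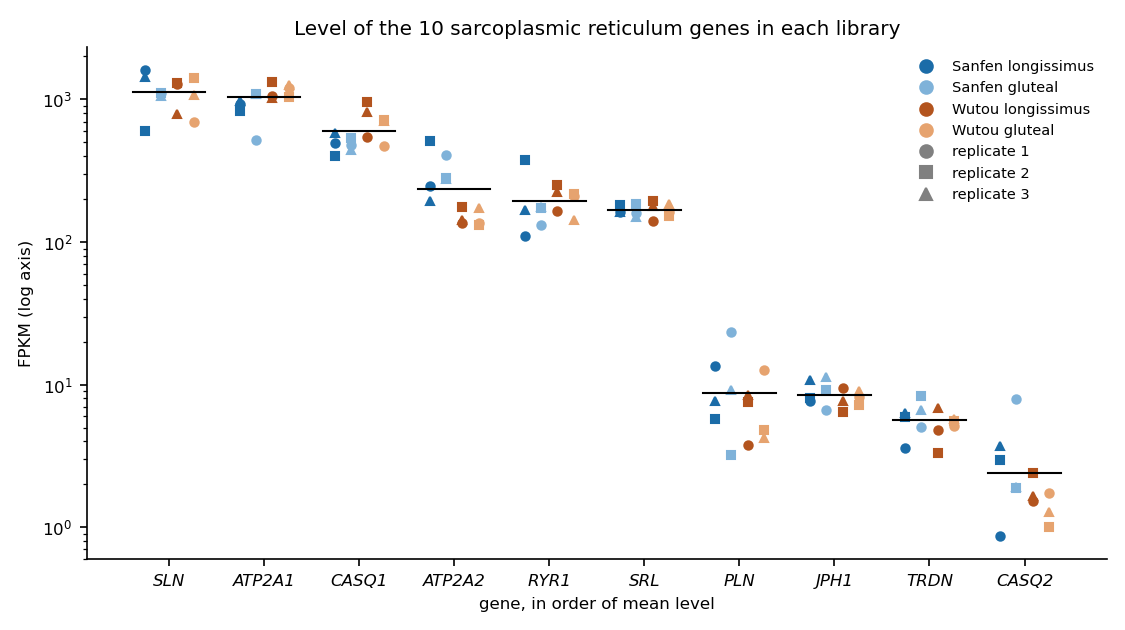
FPKM of each gene (log axis) in each of 12 libraries, with genes on the horizontal axis in order of mean level, colours for the 4 groups, symbols for the replicate number and a black bar at the mean over 12 libraries. SLN to SRL lie between 109.9 and 1601, and PLN to CASQ2 between 0.871 and 23.4.

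The members differed widely in how much they varied between libraries. SRL varied least, with a coefficient of variation of 9.82%. None of the 91 loci within 1.5 times of its mean level, itself included, was lower, and their median was 25.4%. This holds for the row used, since the SRL row with the reference transcripts had a coefficient of 20.7%. The slow isoforms and PLN varied most. The coefficient was 50.9% for ATP2A2, above 90.3% of 62 loci of like level, 80.1% for CASQ2, above 97.1% of 3501 such loci, and 65.5% for PLN, above 95.1% of 1173. Each gene is counted among its own loci of like level.

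Of the pumps, ATP2A1 was the more abundant in every library. ATP2A1 measured 935, 833 and 979 FPKM in the longissimus and 522, 1099 and 1100.0 in the gluteal muscle of Sanfen donkeys. Wutou libraries held ATP2A1 at 1064, 1333 and 1026 in longissimus and 1199, 1039.5 and 1261 in gluteal muscle. Its lowest value was the first Sanfen gluteal library, and the 3 Wutou longissimus libraries lay above the 3 Sanfen longissimus libraries while the gluteal groups overlapped. Both pumps belong to a family of related sequence, and no source used here says how reads that matched both genes were assigned.

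ATP2A2, the pump gene of slow fibres, measured 246, 509.9 and 193 FPKM in Sanfen longissimus and 405, 279 and 276 in Sanfen gluteal. Its row pools 6 transcripts, so forms of SERCA2 made outside slow fibres are counted in it too. In Wutou it measured 136, 175 and 143 in longissimus and 137, 132 and 172 in gluteal. All 6 Sanfen libraries (193 to 509.9) lay above all 6 Wutou libraries (132 to 175), and the 2 highest values belonged to the libraries with the lowest fast-to-slow fibre ratio.

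SLN encodes sarcolipin, a small membrane peptide that binds the pump and lowers its calcium transport, and it was the most abundant member. It measured 1601, 601 and 1441 FPKM in the longissimus and 1101, 1112 and 1062 in the gluteal muscle of Sanfen donkeys. Wutou libraries held SLN at 1277, 1305 and 787 in longissimus and 689, 1409 and 1076 in gluteal muscle. Every group overlapped the others, and the lowest and highest of the 12 values were both in Sanfen longissimus. Its table row carries a reference protein described as partial, so the annotated length that enters FPKM may be incomplete.

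PLN encodes phospholamban, the related inhibitor of SERCA2 best known from heart and slow muscle. It measured 13.5, 5.7 and 7.69 FPKM in the longissimus and 23.4, 3.23 and 9.23 in the gluteal muscle of Sanfen donkeys. Wutou libraries held PLN at 3.78, 7.51 and 8.41 in longissimus and 12.6, 4.8 and 4.2 in gluteal muscle. All 4 groups overlapped, and both the lowest and the highest value were in Sanfen gluteal.

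Calsequestrin 1, the high-capacity calcium buffer of the store, was the dominant calsequestrin in every library. CASQ1 measured 498, 399.7 and 586 FPKM in the longissimus and 477, 537 and 443 in the gluteal muscle of Sanfen donkeys. Wutou libraries held CASQ1 at 546, 953 and 818 in longissimus and 474, 716 and 702 in gluteal muscle. The group means were 495 ± 93.3, 486 ± 47.6, 772 ± 208 and 631 ± 136 (SD, n = 3 each). Wutou and Sanfen libraries overlapped in both muscles, through the first library of each Wutou group.

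CASQ2 measured 0.871, 2.96 and 3.73 FPKM in the longissimus and 7.99, 1.89 and 1.91 in the gluteal muscle of Sanfen donkeys. Wutou libraries held CASQ2 at 1.54, 2.41 and 1.66 in longissimus and 1.73, 1.01 and 1.28 in gluteal muscle. The lowest value of all was the first Sanfen longissimus library, and the highest was the first Sanfen gluteal library. In gluteal muscle all 3 Wutou values lay below all 3 Sanfen values.

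SRL encodes sarcalumenin, a calcium-binding glycoprotein of the longitudinal reticulum that associates with the pump. It measured 162, 181 and 162 FPKM in the longissimus and 159, 185 and 151 in the gluteal muscle of Sanfen donkeys. Wutou libraries held SRL at 141, 195 and 179 in longissimus and 163, 153 and 185 in gluteal muscle. The 4 group means stood within 165 to 172. The SRL row used was an assembled locus without a reference transcript, and a separate row that holds the reference transcripts averaged 119 FPKM (84.6 to 162) with a gluteal minus longissimus log2 difference of -0.24 over both strains in place of -0.03, so the name is split over several rows.

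RYR1, the calcium release channel of skeletal muscle, measured 109.9, 379 and 168 FPKM in the longissimus and 131, 172 and 177 in the gluteal muscle of Sanfen donkeys. Wutou libraries held RYR1 at 165, 252 and 223 in longissimus and 211, 216 and 142 in gluteal muscle. Its lowest and highest values were both in Sanfen longissimus, the highest in the second library, and all groups overlapped. The other ryanodine receptors, named here as its paralogs, were scarce: RYR3 averaged 0.907 FPKM and RYR2, the cardiac channel, 0.258.

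TRDN encodes triadin, which links the release channel to calsequestrin. It measured 3.62, 5.92 and 6.29 FPKM in the longissimus and 5.05, 8.32 and 6.64 in the gluteal muscle of Sanfen donkeys. Wutou libraries held TRDN at 4.84, 3.34 and 6.89 in longissimus and 5.17, 5.6 and 5.71 in gluteal muscle. JPH1, junctophilin 1, ties the reticulum to the transverse tubule. Its values were 7.68, 8.03 and 10.7 in the longissimus and 6.64, 9.14 and 11.4 in the gluteal muscle of Sanfen donkeys. Wutou libraries held JPH1 at 9.4, 6.45 and 7.64 in longissimus and 8.2, 7.25 and 9.01 in gluteal muscle. Neither gene separated any pair of groups by strain or muscle.

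**Figure D2:**
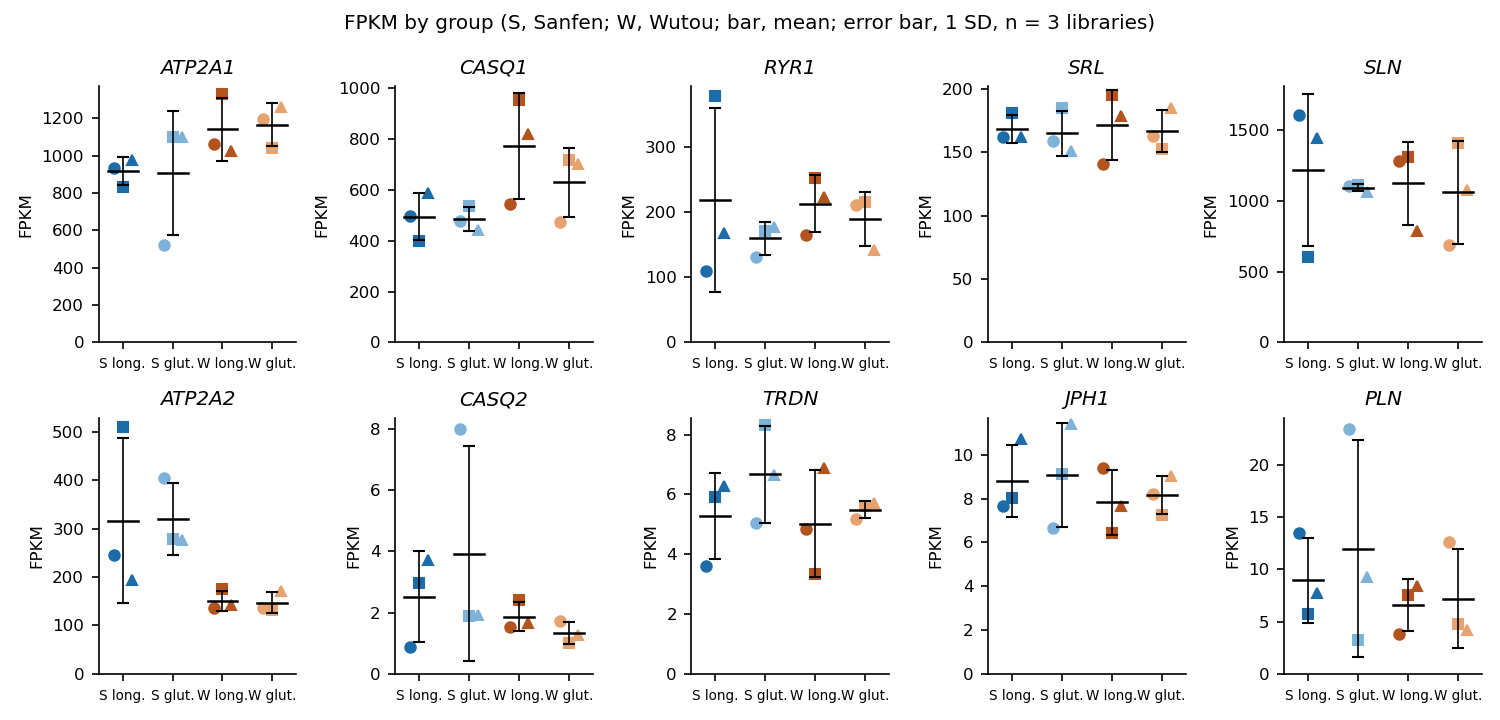
FPKM (linear axis, from 0 or below) of the 10 genes in the 4 groups, 1 panel a gene; points are libraries, horizontal bars group means and error bars 1 SD of 3 libraries. ATP2A2 is the panel in which both Sanfen groups (193 to 509.9) lie above both Wutou groups (132 to 175).

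The fast and slow isoforms of the pump, each taken as a whole gene, were compared within each library, where any scaling shared by all genes cancels. The ATP2A1 to ATP2A2 ratio of FPKM was 3.81, 1.63 and 5.06 in Sanfen longissimus and 1.29, 3.94 and 3.98 in Sanfen gluteal. In Wutou it was 7.81, 7.61 and 7.15 in longissimus and 8.73, 7.88 and 7.34 in gluteal. All 6 Wutou ratios exceeded all 6 Sanfen ratios, and ATP2A2 made up 16.5% to 43.7% of the summed pump FPKM in Sanfen libraries but 10.3% to 12.3% in Wutou libraries.

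The ratio averaged 3.29 ± 1.49 (SD, n = 6) in Sanfen and 7.75 ± 0.552 in Wutou, and its log2 values had an SD of 0.80 in Sanfen and 0.10 in Wutou. For tests the ratio was taken as log2 of (FPKM + 1) over (FPKM + 1). Wutou exceeded Sanfen by 1.25 in longissimus (a ratio 2.37 times as high) and by 1.54 in gluteal (2.91 times). Each difference had an exact two-sided permutation p of 0.1, the smallest that 3 against 3 libraries can give, and 0.5 after Benjamini-Hochberg adjustment over the 10 ratio tests run. Without the 2 libraries that stood apart, the differences were 0.77 and 1.0, an alternative chosen after seeing the data.

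The muscle did not separate the pump ratio. The gluteal minus longissimus difference in log2 ratio was -0.21 in Sanfen (exact permutation p = 0.7), 0.08 in Wutou (exact permutation p = 0.4) and -0.06 over both strains with permutation within strain (exact p = 0.705, adjusted p = 0.783). Gluteal and longissimus libraries overlapped in each strain. These permutations did not pair libraries by number.

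The CASQ1 to CASQ2 ratio was larger by far and less steady. Sanfen libraries gave 572, 135 and 157 in longissimus and 59.6, 284 and 232 in gluteal muscle. Wutou libraries gave 354, 396 and 494 in longissimus and 274, 711 and 547 in gluteal muscle. The strains overlapped in both muscles, since the first Sanfen longissimus library, at 572, lay above all Wutou longissimus libraries and the second Sanfen gluteal library, at 284, lay above the first Wutou gluteal library. The Wutou minus Sanfen difference in log2 ratio was 0.82 in longissimus and 1.22 in gluteal, each with an exact permutation p of 0.2 and an adjusted p of 0.5. The differences were 0.54 and 0.67 without the 2 libraries that stood apart.

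By muscle, the calsequestrin log2 ratio differed by -0.39 in Sanfen (exact permutation p = 0.7), 0.01 in Wutou (exact permutation p = 1.0) and -0.19 over both strains (exact permutation p = 0.645). All of these groups overlapped. CASQ2 sits near the FPKM of 1 that was added before taking logs, so the log2 differences understate its part.

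**Figure D3:**
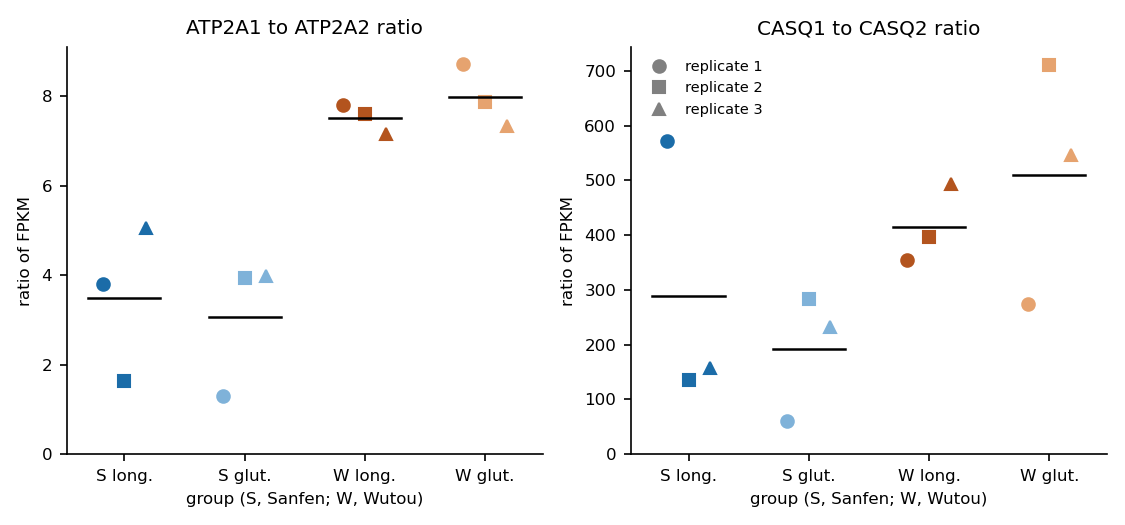
Ratio of FPKM of the fast to the slow isoform (linear axes from 0) for the pumps, left, and the calsequestrins, right, in each library of the 4 groups; symbols mark the replicate number and bars the group mean. The 6 Wutou pump ratios lie between 7.15 and 8.73, above the 6 Sanfen ratios of 1.29 to 5.06, while the calsequestrin ratios of the strains overlap.

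The comparison of strains asked whether the levels differ between Sanfen and Wutou. ATP2A2 was the member with the largest difference: over both muscles its mean was 149 ± 19.1 FPKM in Wutou and 318 ± 117 in Sanfen (SD, n = 6 each), a log2 difference of -1.02 with an SE of 0.26 and a 95% interval of -1.60 to -0.44. It did not pass the test across all loci (limma, adjusted p = 0.783), and ranked at 31 of 12408 loci by p. None of the 10 members passed, and no locus did (0.00% of 12408), while at an unadjusted p under 0.05 the share was 2 of 10 members against 5.97% of all loci. ATP2A2 was the only one of the 10 members whose strains did not overlap over both muscles, lower in Wutou, a pattern that 0.475% of loci showed in either direction and 0.451% as lower.

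The ATP2A2 difference was -0.94 in longissimus (SE 0.33; adjusted p = 0.854, limma) and -1.10 in gluteal (SE 0.33; adjusted p = 0.963, limma). Without the second Sanfen longissimus library the longissimus value was -0.53, and without the first Sanfen gluteal library the gluteal value was -0.92. Without both, the difference over both muscles was -0.73 (adjusted p = 0.745, limma). Averaged first over the libraries that share a strain and number, it was -1.02 with an exact permutation p of 0.1, the smallest possible for 3 against 3. The non-overlap of the strains also held after median-of-ratios scaling, with Wutou at most 187 and Sanfen at least 197, and after quantile normalization, at 176 and 188.

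The other isoforms leaned with smaller values and overlapped over both muscles. CASQ1 was 0.49 higher in Wutou on the log2 scale (95% interval 0.04 to 0.94; adjusted p = 0.802, limma), and 0.41 without the 2 libraries that stood apart. ATP2A1 differed by 0.37 (-0.12 to 0.87), or by 0.16 without those libraries. CASQ2 differed by -0.53 (-1.33 to 0.26), or by -0.16 without them.

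For the remaining members the strain intervals all spanned 0. The log2 difference was 0.18 for RYR1 (-0.47 to 0.84), -0.07 for SLN (-0.73 to 0.60) and -0.42 for PLN (-1.39 to 0.56). With 1 library left out the PLN value ran from -0.70, without the second Sanfen gluteal library, to -0.13, without the first. It was also over 1.5 times away without the first Wutou gluteal library (-0.66), the third (-0.27) and the first Wutou longissimus library (-0.23), and it was -0.21 without the 2 libraries that stood apart. The difference was 0.02 for SRL (-0.32 to 0.36), -0.15 for TRDN (-0.56 to 0.27) and -0.13 for JPH1 (-0.48 to 0.22). SRL and JPH1 were the members with the tightest intervals, and PLN had the widest. The median over the 10 members was -0.10, close to the -0.07 over all loci.

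Within longissimus muscle, 2 members did not overlap between strains, ATP2A1 higher and ATP2A2 lower in Wutou, where 11.8% of loci did not overlap, 3.88% as higher and 7.92% as lower. None of the 10 passed the adjusted test and 0.0161% of loci did, while 2 of 10 members, ATP2A2 and CASQ1, and 5.52% of loci had an unadjusted p under 0.05. The ATP2A1 difference there was 0.31 (SE 0.28; adjusted p = 0.881, limma), and its direction turned to -0.01 under quantile normalization. Within gluteal muscle, ATP2A2 and CASQ2 were lower in Wutou without overlap, where 10.9% of loci did not overlap, 8.68% as lower. None of the 10 passed and 0.00806% of loci did, while 1 of 10 members, ATP2A2, and 4.86% of loci had an unadjusted p under 0.05. The CASQ2 difference was -0.87 (SE 0.43; adjusted p = 0.963, limma), and -0.32 without the first Sanfen gluteal library. ATP2A1 in gluteal muscle was 0.44 higher in Wutou, and 0.08 without that same library.

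The comparison of muscles gave small differences for every member. None of the 10 passed the adjusted test in Sanfen (0.0242% of loci did), in Wutou (0.00% of loci) or over both strains (0.00% of loci), and none passed an unadjusted p of 0.05 in these comparisons, where 3.57%, 5.68% and 6.56% of loci did. No member separated the muscles without overlap, against 7.54% of loci in Sanfen, 12.9% in Wutou and 0.387% over both strains.

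Over both strains, the gluteal minus longissimus log2 difference was -0.03 for ATP2A1 (95% interval -0.47 to 0.41), 0.04 for ATP2A2 (-0.47 to 0.55), -0.15 for CASQ1 (-0.56 to 0.27) and 0.04 for CASQ2 (-0.62 to 0.70). It was -0.22 for RYR1 (-0.83 to 0.38) and 0.22 for TRDN (-0.16 to 0.61), the most extreme of the 10 in each direction. Each interval spans 0, and none of them shows that the muscles are alike. The sign of several of these small values depends on the scaling: under quantile normalization ATP2A1 became 0.14, CASQ1 0.08 and SLN 0.12.

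Whether the muscle difference depended on strain was tested as an interaction. Member values ran from -0.66 for CASQ2 (SE 0.61) to 0.13 for ATP2A1 (SE 0.40), and all 10 had an adjusted p of 1.0 (limma). None of the 10 members and 0.00806% of loci passed, and none of the 10 had an unadjusted p under 0.05, against 2.60% of loci.

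**Figure D4:**
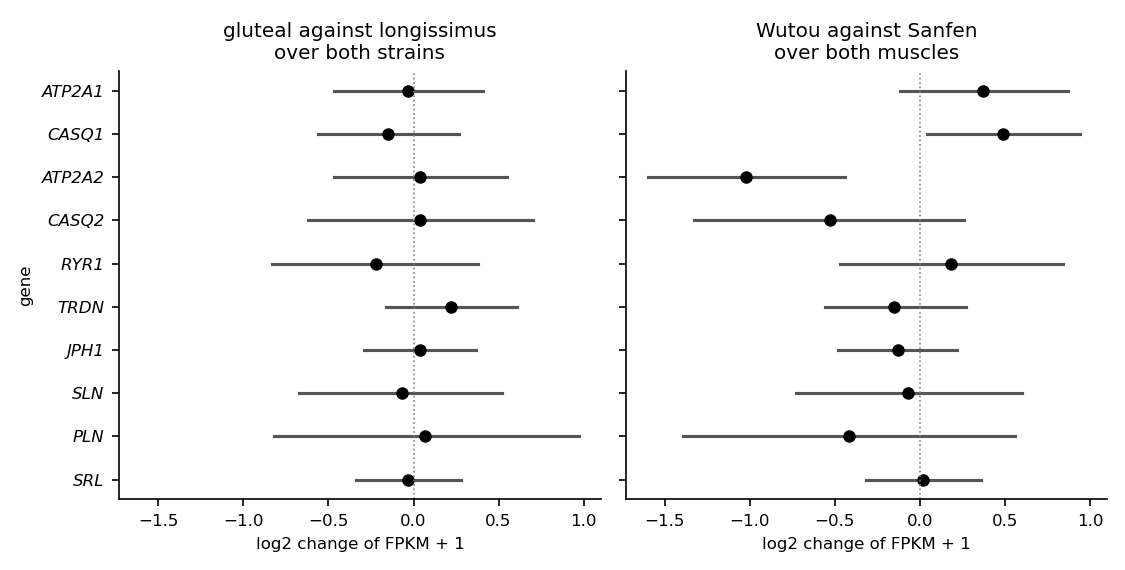
Log2 difference of FPKM + 1 for each gene, gluteal minus longissimus over both strains on the left and Wutou minus Sanfen over both muscles on the right; points are estimates, lines 95% intervals and the dotted line no difference. The intervals of ATP2A2 (-1.60 to -0.44) and CASQ1 (0.04 to 0.94) are the only ones that do not cross 0, before adjustment over all loci.

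Fibre-type genes leaned between the strains alongside ATP2A2. Over both muscles, 11 of 13 slow fibre genes were lower and 11 of 13 fast fibre genes higher in Wutou than in Sanfen, with median log2 differences of -0.40 and 0.32 against -0.07 over all loci, and none passed the adjusted test. No row was matched to the myosin genes MYH1 and MYH4 of the fast list or MYH7 and MYL6B of the slow list. The slow and fast medians were -0.30 and 0.41 after median-of-ratios scaling and -0.45 and 0.28 after quantile normalization. Without the 2 libraries that stood apart, 9 of 13 slow genes were lower (median -0.21) and 8 of 13 fast genes higher (median 0.10). The summed FPKM of the slow list was 6403 to 17307 in Sanfen and 5672 to 7669.6 in Wutou libraries, and that of the fast list 7377 to 20461 and 13896 to 23184. Fewer fibres of a type and less RNA per fibre cannot be told apart in whole tissue, and the part of fibre composition in the ATP2A2 result was not tested.

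The most abundant fibre genes illustrate the sizes. MB, myoglobin, averaged 4799 FPKM in Sanfen longissimus, 5600.4 in Sanfen gluteal, 3309.6 in Wutou longissimus and 3144 in Wutou gluteal. TNNC1, slow troponin C, averaged 748, 1177, 876 and 569.6, and MYL2, the slow regulatory light chain, 751, 1217, 586 and 542. Among fast genes, TNNC2 averaged 7269, 7246, 10112 and 8969, MYLPF 2053, 2403, 3002 and 2188, and TNNI2 1539, 1759, 2966 and 2560, in the same order of groups. No fibre gene named here passed the adjusted test.

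TPM3, slow tropomyosin, was the only gene of the slow list that separated the strains over both muscles, lower in Wutou as were 0.451% of loci. TPM3 measured 86.1, 134 and 127 FPKM in the longissimus and 286, 94.9 and 82.7 in the gluteal muscle of Sanfen donkeys. Wutou libraries held TPM3 at 76.4, 71.6 and 69.3 in longissimus and 73.1, 45.1 and 47.9 in gluteal muscle. Its log2 difference was -0.95 (SE 0.33; adjusted p = 0.793, limma). Without both libraries that stood apart it was -0.61, and without the first Sanfen gluteal library alone -0.66. The count of slow genes that lay lower in Wutou without overlap was 3 of 13 in longissimus, against 7.92% of loci, and 6 of 13 in gluteal muscle, against 8.68%. Without the library that stood apart in each muscle the counts were again 3 and 6, against 13.8% and 13.2% of loci.

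**Figure D5:**
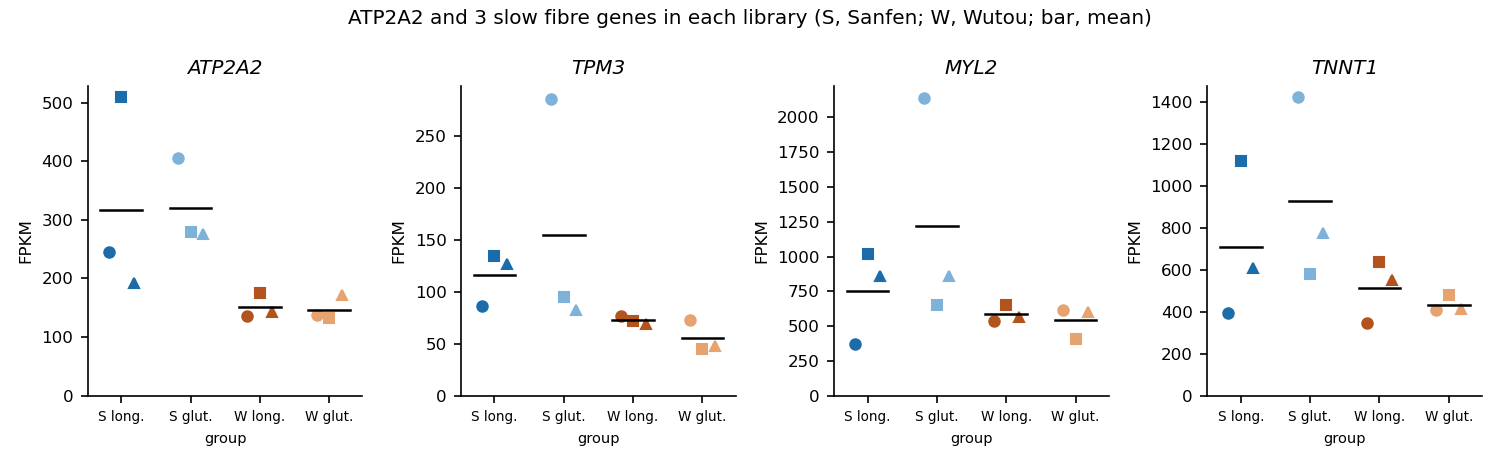
FPKM (linear axes from 0) of ATP2A2 and of the slow fibre genes TPM3, MYL2 and TNNT1 (TNNT1 chosen after its values were seen) in each library of the 4 groups; symbols mark the replicate number and bars the group mean. The first Sanfen gluteal library is the highest for TPM3 (286), MYL2 (2138) and TNNT1 (1420.1), while ATP2A2 is highest in the second Sanfen longissimus library (509.9).

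Markers of other cells were counted in the same strain comparison, in which 8030 of 12408 loci were lower in Wutou, and their part in the result was not tested. Of the kept markers, 9 of 10 smooth muscle and pericyte genes were lower (summed FPKM 1069 to 2570 in Wutou and 1257 to 2667 in Sanfen), as were all 3 nerve and Schwann cell genes (4.19 to 8.5 and 7.91 to 17.1), 4 of 5 adipocyte genes (9.33 to 23.1 and 14.9 to 38.3) and all 4 satellite cell genes (8.97 to 22.1 and 6.67 to 64.1). Of the endothelial genes 4 of 6 were lower, of the fibroblast and tendon genes 5 of 7 and of the immune genes 2 of 3, with sums of 41.6 to 77.9 and 44.6 to 77.1, 109 to 209.8 and 143 to 274, and 5.06 to 10.4 and 3.91 to 9.71. FMOD, a fibroblast and tendon gene named after its values were seen, lay lower in Wutou without overlap, as did 0.451% of loci. Its log2 difference was -1.67 (SE 0.29, adjusted p = 0.453, limma), larger than that of ATP2A2. All sums cover every gene of a list that was present, also those not kept, so the nerve sums hold 6 genes. The 4 kept satellite cell genes were MYOG, CHRNA1, MYOD1 and MYF5, named after their values were seen. PAX7 and CALCR, at means of 0.387 and 0.0467 FPKM, were not kept. MYOG had the highest mean of that list, 14.4, and these counts and sums do not single out satellite cells. The smooth muscle and pericyte sums mostly reflect DES, at a mean of 1871 FPKM, since TAGLN, next in that list, averaged 42.0. DES is expressed by skeletal muscle fibres as well, so these sums do not measure smooth muscle or pericytes. DES was also the only gene of that list not lower in Wutou (log2 difference 0.05). DES and TAGLN were named after their values were seen. After median-of-ratios scaling 6 of the 10 smooth muscle and pericyte genes were lower, and 1 of the 3 immune genes. The counts were then 3 of 5 for adipocyte, 4 of 7 for fibroblast and tendon and 3 of 4 for satellite cell genes. Those of the nerve and endothelial genes stayed at 3 of 3 and 4 of 6. Without the 2 libraries that stood apart 6 of 10 smooth muscle and pericyte genes and 0 of 3 immune genes were lower. The nerve and adipocyte counts were 3 of 3 and 4 of 5. Those of the fibroblast and tendon, endothelial and satellite cell genes were 5 of 7, 4 of 6 and 3 of 4. None passed the adjusted test and no marker listed was at 0 in all libraries, though NEFL, CALCR and MS4A1, chosen after their values were seen, averaged under 0.1 FPKM. The heart markers MYL7 and MYBPC3, chosen in the same way, averaged 0.00191 and 0.0631. A locus that now carries the symbol MYH6, also chosen after its values were seen, reached 1031 to 2451 in group means, but no row was matched to its near-identical neighbour MYH7, so its identity is uncertain.

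The rest of the pathway was read from 3 lists. Of 22 kept genes for release and the triad, 8 were higher and 14 lower in Wutou over both muscles (median log2 difference -0.02). Of 29 genes for uptake, buffering and pump regulation, 15 were higher and 14 lower (median 0.00), and of 23 genes for store-operated entry, transverse tubules and reticulum anchoring, 14 were higher and 9 lower (median 0.02). None of these genes passed the adjusted test in any comparison, and the median over all loci was -0.07. After median-of-ratios scaling, where the median of all loci was -0.00, the counts were 14 higher and 8 lower, 20 and 9, and 17 and 6. Without the 2 libraries that stood apart they were 10 and 12, 11 and 18, and 12 and 11.

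For gluteal against longissimus over both strains, the same lists gave 8 higher and 14 lower (median -0.03), 22 higher and 7 lower (0.16), and 11 higher and 12 lower (-0.00), against 0.07 over all loci. None passed. MCU, the pore of the mitochondrial calcium uniporter, and SRPK3, a muscle kinase, both named after their values were seen, were the only genes of the 3 lists that separated the muscles without overlap, MCU higher and SRPK3 lower in gluteal muscle, where 0.387% of loci did so. In Wutou alone, 10 of the 23 anchoring genes did not overlap between muscles, 6 higher and 4 lower in gluteal muscle, against 12.9% of loci. In Sanfen alone 1 of the 23 did not overlap, against 7.54% of loci.

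In the release list, the most abundant genes were S100A1, CALM3, HRC and CACNA1S. S100A1, a calcium-binding modulator of the release channel, averaged 69.4 ± 65.7 FPKM in Sanfen longissimus, 102 ± 115 in Sanfen gluteal, 93.6 ± 68.0 in Wutou longissimus and 68.7 ± 53.6 in Wutou gluteal (SD, n = 3), so its libraries scattered more than the groups differed. CACNA1S, the voltage sensor that opens RYR1, averaged 67.0, 57.0, 66.5 and 54.4. HRC, a histidine-rich calcium-binding protein of the reticulum, averaged 72.9, 86.3, 79.0 and 77.0, and CALM3, a calmodulin gene, 88.1, 77.3, 88.4 and 76.4.

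STRIT1 encodes DWORF, a peptide that competes with sarcolipin and phospholamban for the pump and favours its activity, and it led the uptake list. It averaged 36.4 ± 20.0, 88.4 ± 65.2, 29.2 ± 4.45 and 29.9 ± 9.38 FPKM in Sanfen longissimus, Sanfen gluteal, Wutou longissimus and Wutou gluteal, with its highest value, 159, in the first Sanfen gluteal library. The strain difference was -0.73 on the log2 scale (SE 0.41; adjusted p = 0.853, limma), and -0.45 without that library. CAMK2A and CAMK2D, calcium/calmodulin-dependent kinases, averaged 33.1 and 27.6 over 12 libraries, and CALR, the calcium-binding chaperone calreticulin, 30.7. Myoregulin (MRLN), another pump-inhibiting peptide named after its value was seen, averaged 20.6 against 1122 for SLN.

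In the anchoring list, CMYA5, a protein of the muscle triad and Z-disc region, averaged 319, 309.7, 241 and 333 FPKM in the same order of groups. BIN1, which shapes the transverse tubule, averaged 36.8, 36.9, 44.0 and 33.5, and RTN2, a reticulon, 21.6, 26.7, 31.8 and 25.3. In the comparisons over both muscles and over both strains these 3 genes overlapped. In Wutou alone CMYA5 and RTN2 did not overlap between muscles, CMYA5 higher and RTN2 lower in gluteal muscle, where 12.9% of loci did not overlap. In longissimus alone RTN2 was higher in Wutou without overlap, as were 3.88% of loci.

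Among paralogs, named as such, ATP2A3 averaged 0.813 FPKM, and JPH2 3.82 against 8.45 for JPH1. ATP2A1, RYR1 and JPH1 were each the most abundant gene measured of their family.

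The pattern over libraries was described by Pearson correlation of log2(FPKM + 1) over the 12 libraries, which fall into 4 groups and may share donkeys, with 2214 or 2215 named genes as candidates. The libraries that stood apart are included, and no correlation without them is given. CASQ2 ran closest to MYL2 (r = 0.95), ACADS (0.90) and TPM3 (0.89), and MYL2 and TPM3 are slow fibre genes. The first Sanfen gluteal library was the highest for CASQ2 (7.99 FPKM), MYL2 (2138) and TPM3 (286), so these values may rest largely on it. ATP2A2 ran closest to PARP1 (0.86), CAT (0.85) and XPO4 (0.85), and among the members to CASQ2 (0.58). ATP2A1 ran closest to PADI2 (0.78), HSPA2 (0.77) and CBY1 (0.76), and among the members to CASQ1 (0.48).

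CASQ1 ran closest to MRPL55 (0.92), DDX39A (0.88) and SURF2 (0.86), and SLN to RPL39 (0.89), CHPT1 (0.86) and PDCL3 (0.83). PLN ran closest to GPS2 (0.85), MYOZ2 (0.83), a slow fibre gene, and LIN37 (0.83), and among the members to CASQ2 (0.49). Within the members, ATP2A1 ran opposite to ATP2A2 (-0.65) and to CASQ2 (-0.72), and CASQ1 opposite to ATP2A2 (-0.63). The first Sanfen gluteal library held the lowest ATP2A1 (522 FPKM) and the highest CASQ2 (7.99) and PLN (23.4).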

How the data were processed

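The deposited table gives FPKM per locus for 12 libraries, per the file headers. Per the submitters' processing notes, cutadapt, Bowtie2 and TopHat2 were used, versions not stated; locus names are of the StringTie default form, and no source used here names a genome build. FPKM are not counts, and steps among low values gave no dependable depth. The 12408 loci with 3 or more libraries at an FPKM of 1 or above were fitted with limma 3.58.1 (R 4.3.3) on log2(FPKM + 1), 1 mean for each of 4 groups, trended variances, 8 residual degrees of freedom and Benjamini-Hochberg adjustment over all loci at 0.05. The pseudocount of 1 understates differences of scarce genes. The strain comparison over both muscles treated libraries of 1 strain and number as a random block (consensus correlation 0.188). Isoform ratios were compared by exact two-sided permutation over 20 arrangements, or 400 within strain. The main muscle tests, by permutation and by limma, did not pair libraries by number, and a fixed replicate block was run as an alternative. The fitting script was tested on simulated data.

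Same-numbered libraries of the 2 muscles deviated together in Sanfen (correlations 0.246, 0.11 and 0.158) and in Wutou (0.182, 0.165 and 0.0711). Differently numbered libraries reached at most -0.000829 in Sanfen and 0.0126 in Wutou. Deviations were taken from the group mean, so positive same-numbered values push these others down by construction, and they are no separate evidence of pairing. The third Wutou pair fell under the limit of 0.1 used for calling a pair. From the values, the numbers may thus pair libraries in both strains, less clearly in Wutou, and no label states it. The members, gene lists and fibre markers were chosen with earlier results of these data known. Named genes were all 10 members, the 4 most abundant genes of each pathway list, the 3 most abundant of each fibre list and the 3 most similar genes of 6 members; others are marked as chosen after their values were seen. The values of 1 gene that this rule names are not reported here. Loci listed by identifier were given current symbols from RefSeq. Alternatives changed the pseudocount, the filter, the scaling, the block, array weights, the libraries fitted and the row per gene.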

Additional observations from a re-analysis of the deposited data

How the results depend on the processing

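No member passed in any of 1450 values over 24 other settings (smallest adjusted p 0.433, limma), and ATP2A2 kept its direction between strains throughout. Of the 70 member differences, 48 changed sign somewhere, each at most 0.45 in size. Loci passing numbered, for gluteal against longissimus in Sanfen, 3 as reported, 5 with a pseudocount of 0.1, 5 without a filter, 1 with a minimum of 5, 1 with the replicate block and 0 to 5 with 1 library left out; in Wutou, 0, then 3 with array weights, 1 with only the compared libraries and 0 to 2; over both strains, 0, then 1 without a filter and 0 to 4. For Wutou against Sanfen they numbered 2 in longissimus, then 6 (pseudocount), 4 (no filter), 0 (minimum of 5), 4 (weights), 7 (compared libraries only) and 0 to 6; 1 in gluteal, then 0 with the pseudocount, the minimum of 5, median-of-ratios or quantile scaling, 2 (compared libraries only), 3 without both libraries that stood apart and 0 to 3; and 0 over both muscles, then 1 without a filter, 1 without both libraries and 0 to 1. The interaction had 1, then 2 (no filter), 0 (minimum of 5), 2 (quantile) and 1 to 5.

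The replicate block moved no member past the threshold. Muscle differences over both strains, from -0.22 (RYR1) to 0.22 (TRDN), cannot change under it, because each strain and number has 1 library per muscle. The block alters only their errors: the SE became 0.37 in place of 0.30 for CASQ2 and 0.24 in place of 0.28 for RYR1. Pair sign flips likewise bear only on a p-value, and leave the pump ratio difference at -0.06 by construction. Signs turned over both strains for muscle as follows: quantile scaling gave ATP2A1 0.14, CASQ1 0.08, CASQ2 -0.04, SLN 0.12, the pump ratio 0.02 and the calsequestrin ratio 0.12; median-of-ratios scaling gave ATP2A2 -0.06, CASQ2 -0.03, PLN -0.02 and JPH1 -0.05; array weights gave CASQ2 -0.06, PLN -0.06 and JPH1 -0.01. Between strains, quantile scaling gave ATP2A1 -0.01 in longissimus and median-of-ratios gave SLN 0.04. The cause was not tested.

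With 1 library left out, muscle differences over both strains ran from -0.12 to 0.15 (ATP2A1), -0.11 to 0.24 (ATP2A2), -0.23 to 0.18 (CASQ2), -0.42 to 0.02 (RYR1), -0.29 to 0.07 (SLN), -0.24 to 0.39 (PLN), -0.10 to 0.02 (SRL) and -0.04 to 0.13 (JPH1). Strain differences ran from -0.61 to 0.06 (CASQ2, longissimus), and over both muscles from -0.00 to 0.42 (RYR1), -0.29 to 0.08 (SLN), -0.70 to -0.13 (PLN) and -0.04 to 0.08 (SRL), and ATP2A2 from -1.16 to -0.81. Muscle differences of the pump ratio ran from -0.69 to 0.33 in Sanfen and -0.30 to 0.20 over both strains, and of the calsequestrin ratio from -0.73 to 0.17 in Sanfen, -0.20 to 0.32 in Wutou and -0.36 to 0.09 over both strains. Strain differences of the pump ratio ran from 0.77 to 1.59 in longissimus and 1.0 to 1.81 in gluteal.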
